A study of Strongylocentrotus purpuratus with 10 samples.

Results

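Genes of the ubiquitin and proteasome system were followed in Strongylocentrotus purpuratus, the purple sea urchin, in whole embryos at the blastula stage, 24 h after fertilisation. The authors' deposited table holds 3542 genes that differed between brachyury morphants and controls at an adjusted p under 0.05, and 54 of them belong to this system. Members were chosen by the table's descriptions and functional classes, with earlier results of these data known. A description had to contain ubiquitin, proteasome, cullin, F-box, tripartite motif or TRIM with a number. Genes whose first functional class was zinc finger, cell cycle, translation, nervous system or metabolism were left out, as were ribosomal and mitochondrial descriptions. These exclusions removed 15 of 69 matching genes.

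Morphant embryos (3 RNA libraries) had received 2 to 4 pl of a translation-blocking morpholino against brachyury at 200 µM as zygotes. Control embryos (3 RNA libraries) carry the label wild type control, and the labels do not say whether they were injected. Brachyury binding was measured with 2 antibody ChIP libraries, each set against its own input library. Brachyury is a T-box transcription factor. The table gives a fold change and p-values for each gene, without a level, an error or a value per library, so no spread between libraries can be shown and the labelled tissue was not checked against markers. In RNA from whole embryos, fewer cells of a type and less RNA per cell cannot be told apart. The numerator of the fold changes is not given, and the signs are therefore reported as positive and negative. A positive sign means higher in morphants only if the ratio is morphant over control. The brachyury gene (LOC576774) itself stands in the authors' deposited table at 1.18 on the log2 scale (adjusted p 8.71e-05). A translation-blocking morpholino need not lower the transcript, so this value does not check the knockdown.

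Ubiquitin is a small protein that is attached to other proteins as a tag. An activating enzyme (E1) passes it to a conjugating enzyme (E2), and a ligase (E3) brings the loaded E2 to a chosen substrate. F-box proteins are the substrate receptors of cullin ligases, and TRIM proteins are a large family of RING-type ligases. Deubiquitinases take the tag off again. Proteins that carry suitable ubiquitin chains are unfolded and cut by the proteasome, whose regulatory particle receives them. In early embryos the system clears maternal proteins and sets the lifetime of cyclins and of signalling components.

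Of the 54 members, 31 (57.4%) were positive and 23 negative, while 48.4% of all genes in the table were positive and 51.6% negative. The split differed by role. All 7 E2 genes were negative, as were 4 of 6 proteasome genes. Among proteasome genes whose description carries their own gene ID, 2 were positive and 1 negative. The proteasome lean therefore depends on the other descriptions. Positive values were found in 16 of 23 E3 ligases, 3 of 3 genes with TRIM or tripartite motif in the description, 4 of 5 F-box genes and 3 of 4 deubiquitinases. The 6 modifiers and other genes divided evenly into 3 positive and 3 negative. No E1 enzyme and no cullin is among the members. The lists are small and their members were not tested as sets, so these counts are descriptions.

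**Figure D1:**
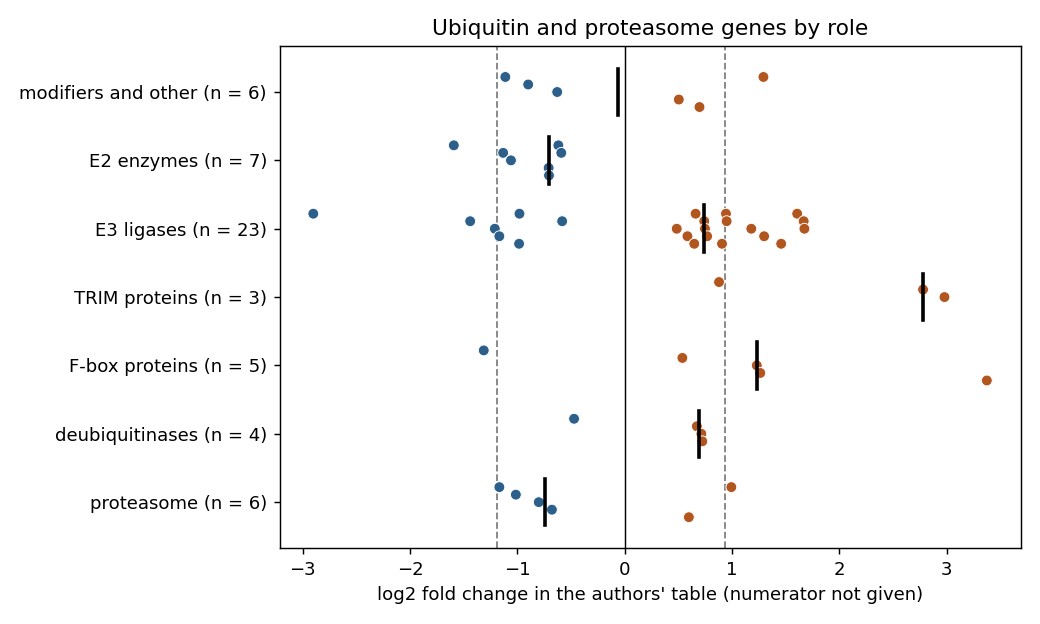
Log2 fold change of each member in the authors' deposited table (x axis), by role (y axis); points are genes, orange positive and blue negative, black bars are role medians, and dashed lines are the medians of all positive (0.93) and all negative (-1.19) genes of the table. The 7 E2 genes all lie below 0, and the 3 genes with TRIM or tripartite motif in the description all lie above it.

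The members' changes had a median absolute size of 0.95 on the log2 scale in the authors' deposited table, against 1.06 over all genes. In the authors' deposited table, positive members had a median of 0.91 on the log2 scale and negative members one of -0.98, beside 0.93 and -1.19 over all genes. A change of 1 or more on the log2 scale, in either direction, was reached by 23 members (42.6%), against 53.9% of all genes in the authors' deposited table. Of these 23, 12 were positive and 11 negative, while 21.3% of all genes there were at 1 or higher and 32.6% at -1 or lower. An adjusted p under 0.01 was reached by 36 members (66.7%), against 62.4% of all genes there. The members' values ran from -2.90 for a gene described as the ligase RNF185 to 3.37 for a gene described as F-box protein SKP2A in the authors' deposited table. The median of all members, 0.59 in the authors' deposited table against -0.51 over all genes, lies close to the range around 0 in which few genes passed the threshold, so it says little beyond the count of signs.

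**Figure D2:**
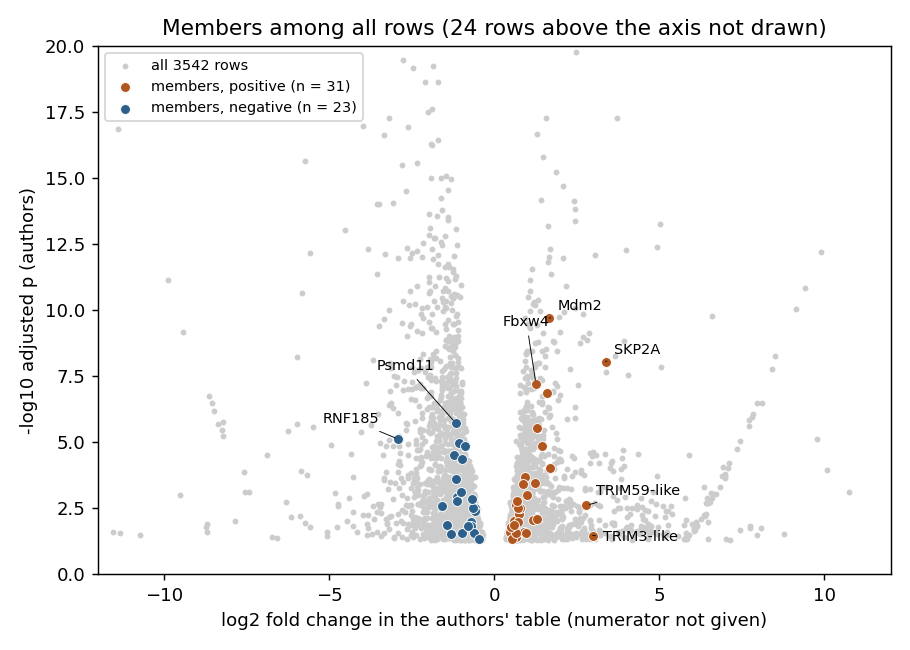
Log2 fold change (x axis) and -log10 of the authors' adjusted p (y axis) for all genes of the authors' deposited table (grey) and the 54 members (orange positive, blue negative). Members lie mostly within the dense part of the cloud; 24 genes above the y axis limit are not drawn, and none of them is a member.

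Ubiquitin itself is encoded by genes that hold several repeats or a fusion to a ribosomal protein. The authors' deposited table lists a polyubiquitin-C gene (LOC105436409) at -0.90, with an adjusted p of 1.36e-05. A second gene with that description (LOC754856) stood at 1.29 in the authors' deposited table, with an adjusted p of 2.93e-06. The 2 genes lie 744 kb apart on one scaffold with 17 protein-coding genes between them. They carry the same older gene model, so reads may have been divided between them, and their opposite signs are uncertain for that reason.

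The ubiquitin-like modifiers went both ways as well. Ubiquitin-fold modifier 1 (LOC578331), a tag linked to ribosomes at the endoplasmic reticulum, had -1.11 in the authors' deposited table. Its name there is that of a translation initiation factor, and its domain terms name both proteins. Small ubiquitin-related modifier 3 (LOC594186), a SUMO protein that mainly modifies nuclear proteins, had 0.70 in the authors' deposited table. The IQ and ubiquitin-like domain gene (LOC589708), known from cilia, had 0.50 in the authors' deposited table. The proteasomal ubiquitin receptor ADRM1 (LOC753175), which falls in this group by its description, had -0.63 in the authors' deposited table.

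The E2 enzymes, which carry activated ubiquitin, were all negative, between -0.59 and -1.59 in the authors' deposited table. Among all genes 51.6% were negative. The gene described as E2 G1 (LOC754943) stood lowest, with -1.59 in the authors' deposited table and an adjusted p there of 0.00269. The gene described as E2 2 (LOC587016) had -1.13 in the authors' deposited table. A gene described as E2 S (LOC115922788), which extends chains for the anaphase-promoting complex, had -0.70 in the authors' deposited table. E2 N (LOC590968, named Ubc13), which builds chains used in signalling and DNA repair, had -0.62 in the authors' deposited table. All 7 E2 genes carry the ubiquitin-conjugating domain in the table's domain terms.

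Some of the E2 genes were neighbours. Position was not used to choose members, but the description was, and neighbouring genes can share it. Of the 7, 4 lie next to each other on scaffold NW_022145595.1 of Spur_5.0, from 14281404 to 14477502. This stretch of 196 kb holds 4 genes in the gene table, and all 4 are in the authors' deposited table with negative values. In order they are E2-17 kDa (LOC575905) at -0.59, E2 2 (LOC587016) at -1.13, E2 D3 (LOC575665) at -0.71 and another gene described as E2 D3 (LOC115918048) at -1.06 in the authors' deposited table. The last of them is annotated as a transcribed pseudogene, although its adjusted p, 1.09e-05 in the authors' deposited table, is the lowest of the E2 genes. The E2 D3 pair shares an older gene model, so these neighbours may share reads and are not 4 independent observations. Their scaffold was inferred from the order of the gene table.

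E3 ligases, which choose the substrate, were the largest role and leaned to positive values. Mdm2 (LOC100893740), known in vertebrates as the ligase of p53, had 1.67 in the authors' deposited table. Its adjusted p, 2.02e-10 in the authors' deposited table, was the lowest of all members and ranked 175 among all genes. A second gene with the Mdm2 description (LOC115918755) had 0.95 in the authors' deposited table. RBBP6, a RING ligase that binds the retinoblastoma protein in mammals, had 1.68 (LOC105441897) and 0.91 (LOC584197) in the authors' deposited table. MARCH8, a membrane ligase that removes receptors from the cell surface, had 1.61 in LOC575267 and 1.46 in LOC115924548 in the authors' deposited table. Close to these, the Midline-1-like gene (LOC100890230), known in vertebrates as a TRIM-family protein, counted here by its description and listing a B-box domain, had 1.30 in the authors' deposited table.

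The remaining positive E3 ligases were between 0.49 and 1.18. A gene described as UBR4 (LOC115924990), a ligase of the N-degron pathway, had 1.18 in the authors' deposited table, but the gene table annotates it as a long non-coding RNA. RNF14 (LOC580319) had 0.94 in the authors' deposited table, with an adjusted p of 0.00021. HECW2 (LOC764826), a HECT-type ligase by its name, had 0.77 in the authors' deposited table. TRAIP (LOC763774), which acts at replication forks, and listerin (LOC594232), which marks stalled nascent chains on ribosomes, had 0.75 and 0.74 in the authors' deposited table. A gene described as SMURF2 (LOC115929530), a ligase that limits TGF-beta and BMP signalling, had 0.65 in the authors' deposited table. RNF19A (LOC575444) and ARIH2 (LOC589579), both of the RING-between-RING type, were at 0.59 and 0.49 in the authors' deposited table.

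The 7 negative E3 ligases include 3 genes described as UHRF1, which in mammals reads hemimethylated DNA and helps maintain its methylation. Their values were -1.21 (LOC756912), -1.17 (LOC115924973) and -0.98 (LOC586739) in the authors' deposited table. The first and second share an older gene model, while LOC586739 has its own and lists tandem tudor, SAD/SRA and PHD domains. A gene described as RNF185 (LOC115926801), a ligase known in mammals from degradation at the endoplasmic reticulum, had the most negative member value, -2.90, in the authors' deposited table. Genes described as PDZRN3 (LOC115923175, named Pdzrn4 by the authors) and RNF13 (LOC115918526) had -1.44 and -0.98 in the authors' deposited table. MYLIP, a FERM-domain ligase that marks lipoprotein receptors in mammals, was split between 2 genes with descriptions of their own. MYLIP-A (LOC585541) had 0.66 and MYLIP (LOC576603) had -0.58 in the authors' deposited table.

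TRIM and F-box genes held the most positive members. The tripartite motif genes described as TRIM3-like (LOC100892981) and TRIM59-like (LOC100893666) had 2.98 and 2.78 in the authors' deposited table, with adjusted p of 0.0344 and 0.00248. TRIM39-like (LOC100891315) had 0.88 in the authors' deposited table, with the lowest adjusted p of these genes, 0.00039. All 3 list a RING-type domain and none lists a B-box among its domain terms. The TRIM3-like gene lies 10.03 kb from ubiquitin-fold modifier 1, with no protein-coding gene between them, and the signs of these neighbours were opposite.

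Among substrate receptors, the gene described as F-box protein SKP2A (LOC100891447) had 3.37 in the authors' deposited table, with an adjusted p of 8.86e-09. F-box/WD repeat protein 4 (LOC756492) had 1.26 in the authors' deposited table, with an adjusted p of 6.16e-08. F-box/LRR-repeat protein 4 (LOC755106), which in humans acts at mitochondria, had 1.23 in the authors' deposited table. F-box/WD repeat protein 9 (LOC590729) had 0.54 and a gene described as F-box only protein 30 (LOC115924009) had -1.31 in the authors' deposited table. An F-box is listed among the domain terms of 1 of these 5 genes, the WD repeat protein 9. The domain terms of the SKP2A gene name an RNA phosphotransferase and leucine-rich repeats, and no F-box.

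Deubiquitinases lay between -0.47 and 0.72 in the authors' deposited table, and all 4 list a ubiquitin protease domain. USP22 (LOC581205), a subunit of the SAGA coactivator in mammals, had 0.72 in the authors' deposited table. USP44 (LOC587794), linked to the mitotic checkpoint in mammals, had 0.72 as well in the authors' deposited table, with an adjusted p of 0.00318. Zranb1 (LOC592674), an OTU-type protease, had 0.67 in the authors' deposited table. USP5 (LOC592342), which disassembles free ubiquitin chains, was the negative gene of this role at -0.47 in the authors' deposited table, with an adjusted p of 0.0464.

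Genes described as subunits of the 26S regulatory particle were negative. Subunit 11 (Psmd11), a lid component, had -1.17 (LOC588167) and -1.01 (LOC115918340) in the authors' deposited table, from 2 genes with the same older gene model. The gene described as subunit 1 (LOC115918541), the scaffold to which the ubiquitin receptor ADRM1 binds, had -0.68 in the authors' deposited table. The gene described as proteasome assembly chaperone 2 (LOC752873) had -0.80 in the authors' deposited table. The positive genes of this role were proteasome activator subunit 4 (LOC590127), an alternative cap of the proteasome, at 0.60 and the nuclear tethering factor STS1 (LOC588120) at 0.99 in the authors' deposited table. Neither is a subunit of the 26S particle itself. Of the genes that matched the keywords but fell out by class, beta subunits 6 (LOC575236) and 3 (LOC100893115) of the core had -1.46 and -1.07 in the authors' deposited table. Activator subunit 3 (LOC585921) had -0.51 in the authors' deposited table.

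The other 12 genes left out by class or word were also mixed, which gave 7 positive and 8 negative among all 15. Cullin-1 (LOC589630) and cullin-3-B (LOC590355), the scaffolds of cullin ligases, were at 0.44 and 0.46 in the authors' deposited table. The cullin-associated protein that exchanges their substrate receptors (LOC100888621) had -1.28 in the authors' deposited table. F-box only protein 16 had 2.03 (LOC115929366) and 1.10 (LOC105446210) in the authors' deposited table. Ubiquitin fusion genes of the ribosome stood at -1.10 for S27a (LOC579019) and -0.95 for RL40 (LOC584839) in the authors' deposited table, on the same side as polyubiquitin-C LOC105436409.

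Several descriptions were shared, and copies were mostly close. Of the 54 members, 15 share 7 descriptions, which leaves 46 distinct ones. In 6 of the 7 all copies had the same sign, and polyubiquitin-C was the exception. Of the 337 older gene models that stand on more than 1 row of the authors' deposited table, 37 (10.98%) hold both signs. The difference between the highest and lowest copy ran from 0.15 for MARCH8 and Psmd11 to 0.77 for RBBP6 among those of 1 sign in the authors' deposited table. Mdm2 copies differed by 0.72 and polyubiquitin-C copies by 2.19 in the authors' deposited table. Values of such copies are uncertain, since the authors' counting could divide reads between them.

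**Figure D3:**
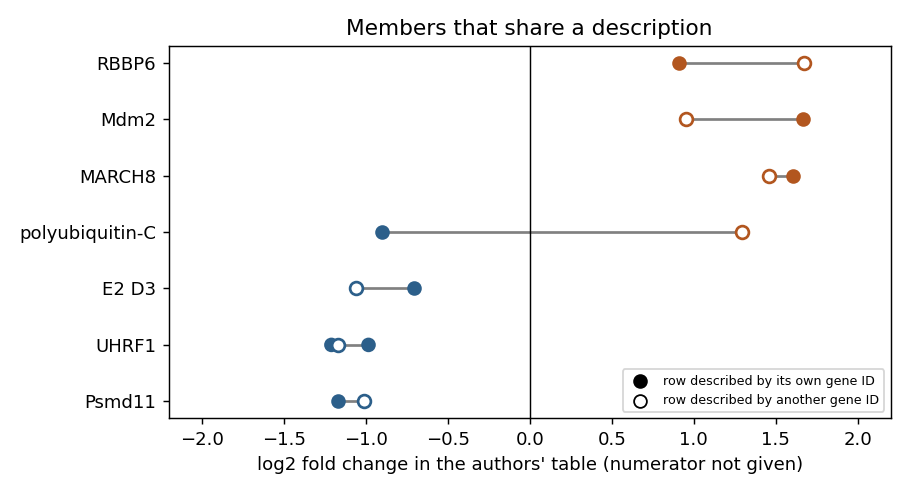
Log2 fold change in the authors' deposited table (x axis) of members that share a description (y axis); filled points are genes whose description carries their own gene ID, open points carry that of another gene, and lines join copies. Polyubiquitin-C is the one description with copies on both sides of 0.

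The description belonged to the row's own gene ID for 36 of 54 members (66.7%), against 61.5% of all rows in the authors' deposited table. The other 18 carry the description of another gene, which is itself a row of the table for 8 of them. These 8 include the gene described as 26S subunit 1 (LOC115918541). The gene that its description names (LOC588746) is in the table, but its own row matched none of the keywords, so that identity is uncertain. For the remaining 10 of the 18, the identity rests on a gene outside the table. These 10 are the genes described as RNF185, PDZRN3, RNF13, SMURF2, UBR4, Midline-1-like, E2 G1, E2 S, F-box only protein 30 and proteasome assembly chaperone 2. Among members with their own description 24 of 36 were positive, and among the others 7 of 18. The same direction was seen over all rows of the authors' deposited table, where 52.5% of genes with their own description and 41.8% of the rest were positive. Median gene spans were 14367 bp for positive and 13158 bp for negative members, beside 16354 bp and 12160 bp over all rows.

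Other genes of the pathway were taken from keyword lists outside the members and counted the same way. Adaptors of cullin ligases were positive for 11 of 15 genes, against 48.4% of all genes. Skp1 (LOC594639), which joins F-box proteins to cullin-1, had 0.44 and Spop (LOC580554), a cullin-3 adaptor, had 0.56 in the authors' deposited table. Keap1 (LOC100889922), the sensor of oxidative stress, had 0.73 and Socs2/3 (LOC594503) had 0.76 in the authors' deposited table. The SPRY and SOCS box protein 3 gene (LOC753336) was the most negative of this list, at -1.61 in the authors' deposited table. RING and HECT proteins without ubiquitin in the description were positive for 4 of 5, against 48.4% of all genes. Rnf145 (LOC581419) led them at 1.30 in the authors' deposited table. The negative gene of this list (LOC115928159), described as RING finger protein nhl-1-like, had -1.26 there. The authors name it Trim2-2, so genes named TRIM outside the members were not all positive.

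Lists of ubiquitin-like conjugation, the signalosome and folding held more negative than positive genes. The SUMO E2 enzyme Ubc9 (LOC589147) had -1.90 in the authors' deposited table, while the SUMO proteases Senp6 (LOC100891399) and USPL1 (LOC100890288) had 0.70 and 0.58. Desumoylating isopeptidase 2 (LOC115929773) had -3.33 in the authors' deposited table. Ubiquitin-like modifiers as a list were positive for 2 of 5 genes, against 48.4% of all genes. The exchange factor LOC100888621 above is 1 of these 5. Both COP9 signalosome subunits, which take NEDD8 off cullins, were negative, subunit 2 (LOC115920609) at -3.42 and subunit 3 (LOC115929685) at -1.42 in the authors' deposited table. Chaperone genes were negative for 21 of 23, against 51.6% of all genes. Of these 23, 8 share an older gene model in pairs (Hsp70L_2, Dnajc3, Hsp901 and Pfdn4, all negative) and may share reads. The 23 chaperone genes include the chaperonin subunits gamma (LOC574601, -0.79) and theta (LOC583086, -0.64) in the authors' deposited table. The list also holds heat shock, DnaJ, prefoldin and tubulin chaperones, and its keyword caught a T-complex protein 11-like gene (LOC115927757, -1.20 in the authors' deposited table), which is no chaperonin subunit. The anaphase-promoting complex had 1 gene, subunit 4 (LOC575488) at 0.86, and autophagy had 1 gene, ATG12-like (LOC115918595) at -1.04 in the authors' deposited table. The lists for p97 with its shuttle factors and for degradation at the endoplasmic reticulum had no gene in the table.

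**Figure D4:**
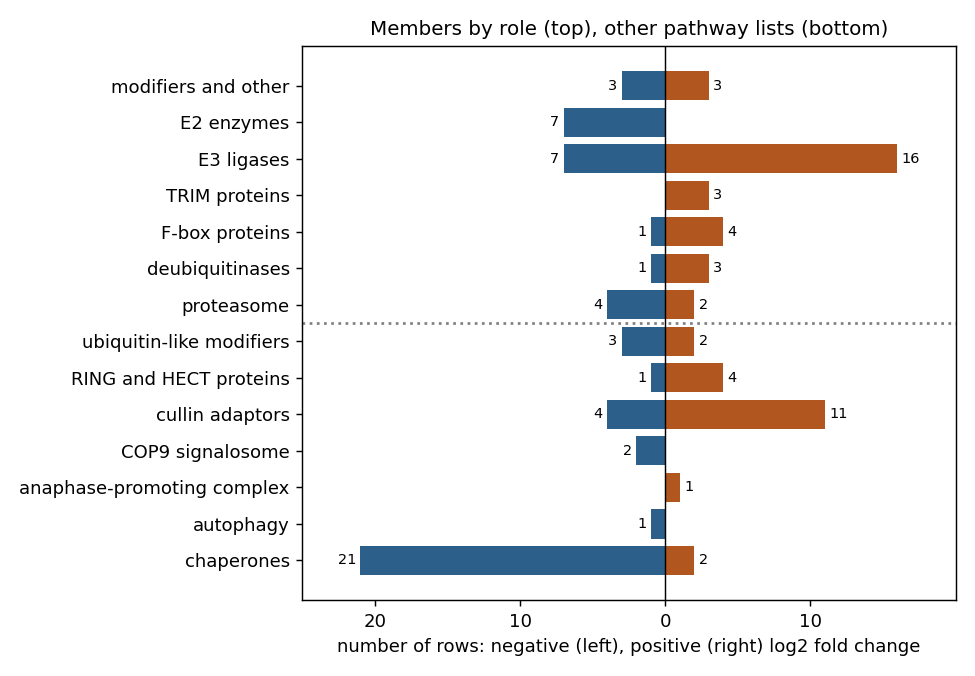
Number of genes with a negative (blue, left) and positive (orange, right) log2 fold change in the authors' deposited table, for the 7 roles with members (top) and for the other keyword lists with at least 1 gene (bottom). E2 enzymes and chaperones extend mainly to the left, and E3 ligases and cullin adaptors mainly to the right.

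Brachyury peaks lay near some members, with scores of 0.50 to 0.74 in the lists of the single libraries. The median score was 0.57 over all library 1 peaks and 0.72 over all library 2 peaks. Of the 54 members, 44 could be placed on a scaffold with peaks as protein-coding genes. The combined peak set, which holds 490 peaks, gave a peak within 10 kb to 2 of these 44 (4.55%), against 2.48% of the 2978 placed rows of the table. HECW2 and E2 N were these 2 genes. Within 5 kb and within 50 kb the count was also 2, against 2.25% and 3.09% of placed rows. These shares rest on 2 genes and were not tested.

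The HECW2 peak lies at NW_022145604.1:24581558-24581841 in Spur_5.0, inside a gene span of 125.53 kb. In antibody library 2 it had an antibody signal of 1.78, an input signal of 0.64, a fold of 2.78 over input and a score of 0.74. Antibody library 1 has its own peak there, with an antibody signal of 0.69, an input signal of 0.09 and a score of 0.61. False discovery rates given by the authors were 20.79% in library 2 and 29.53% in library 1. HECW2 holds 3 further library 2 peaks, with scores of 0.51, 0.51 and 0.60. Their false discovery rates were 40.54%, 40.49% and 34.43%. Whether the peaks lie in exons or introns is not analysed here.

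The E2 N peak lies at NW_022145612.1:22022499-22022782, inside the gene span. In antibody library 2 it had an antibody signal of 1.10, an input signal of 0.44, a fold of 2.50 over input and a score of 0.66, with a false discovery rate of 29.4%. The library 1 peak at the same place had an antibody signal of 0.62, an input signal of 0.09 and a score of 0.52. Its false discovery rate was 35.96%. By score these peaks ranked 464 and 476 of the 490 combined peaks, HECW2 first. The median score of the combined set was 2.18, and the highest peak at the brachyury gene had 9.91. Scores and signals here are the authors' values per peak, and apart from the presence of a peak in both libraries their spread is unknown.

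Peaks of a single library marked 9 more members. Library 1 peaks lay within 10 kb of 5 placed members (11.4%, against 5.57% of placed rows). Besides HECW2 and E2 N these were TRIM3-like with a score of 0.56, TRIM59-like with 0.50 and E2-17 kDa with 0.63. HECW2 and E2-17 kDa lay above the library 1 median and the other 3 below it. The E2-17 kDa peak lies 3452 bp outside the gene, on the side of its E2 neighbours. Library 2 peaks lay within 10 kb of 8 placed members (18.2%, against 23.4% of placed rows). SKP2A held 2 peaks with scores of 0.71 and 0.62, and UHRF1 (LOC586739) held 2 with scores of 0.59 and 0.56. USP44, MYLIP-A, Zranb1 and proteasome activator subunit 4 held 1 each, with scores of 0.72, 0.71, 0.55 and 0.53. For the 9 members with peaks of a single library, the authors' false discovery rates were high. They ran from 23.37% at USP44 to 39.03% at proteasome activator subunit 4. USP44 was at the library 2 median, and HECW2 with its 0.74 peak was above it. No peak at a member reached a score of 1 in any list. The share of all placed genes with such a peak was not computed, so this does not set the members apart.

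**Figure D5:**
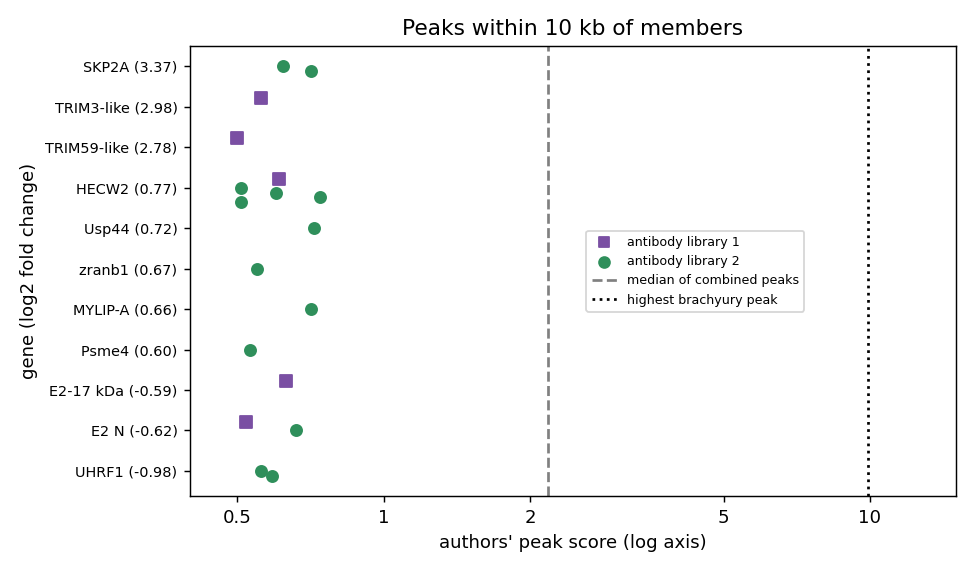
Authors' peak score (x axis, log scale) of peaks within 10 kb of members (y axis, with the log2 fold change in the authors' deposited table); purple squares are antibody library 1 and green circles antibody library 2, and points are offset vertically where a gene has several. Scores lie between 0.50 and 0.74, beside list medians of 0.57 (library 1) and 0.72 (library 2, neither drawn), the median of the combined set (2.18, dashed) and the highest brachyury peak (9.91, dotted).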

How the data were processed

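RNA-seq covered 3 morphant and 3 control libraries, and ChIP-seq 2 antibody libraries with 2 input libraries. Per the submitters' processing notes, the tools were BWA 0.7.17, DESeq2 1.28.1, Salmon 0.11.3 and Trimmomatic 0.38, without a stated role. For the peak caller the sources used here give no name.

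Log2 fold change, p-value and adjusted p-value are the authors' own, per the file headers. With rows ordered by p, the deposited adjusted p falls between neighbours in 1645 places, so it is no step function of that p and the number of genes tested cannot be read back. Score, signal of antibody and input, fold over input and the false discovery rate in percent are the authors' deposited values for each peak, with scaling not given. Depth per library is unknown.

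No new test was made, since the files hold no value per library. Members and lists were chosen with earlier results of these data known. Roles were read from the descriptions by keyword in a set order. Named genes are, per role, up to 3 members a direction with the lowest adjusted p, the 5 largest changes a direction and members with a combined-set peak; other members are named to account for all of them, after their values were seen. The gene table of Spur_5.0 lists all 54 members but gives no scaffold, so scaffolds were inferred: the 21 runs of genes that reach beyond 20 Mb were matched, by order, to 21 scaffolds with more than 100 library 2 peaks each. In all 21 matches no library 2 peak reached past the largest gene end of the run. A peak was given to the nearest protein-coding span within 10 kb of its midpoint, and overlapping spans shared it. The keyword rule was checked on rows with its own keywords written in, and the peak assignment on peaks planted inside genes. Such simulated data check the code only, not the inferred scaffolds or the truth of the descriptions. Python 3.11.15, numpy 2.4.6, pandas 2.3.3 and matplotlib 3.10.9 were used. The planned share of all annotated pathway genes that reached the table was not computed, because the gene table holds no descriptions. No sequence is printed, since no genome or sequence table was used here.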

Additional observations from a re-analysis of the deposited data

How the results depend on the processing

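No paired analysis was possible because the deposited table holds no values per library, and leaving out single libraries was not possible for the same reason. With an adjusted p under 0.01, 21 members were positive and 15 negative, with a median log2 fold change of 0.71. The share of positive genes among all genes at that threshold was not computed. Among members that changed by 1 or more on the log2 scale there were 12 positive and 11 negative members and a median of 1.18. Both settings only remove genes. Over all genes, 21.3% were at 1 or higher and 32.6% at -1 or lower. With members that carry their own description (chosen after seeing the data), 24 were positive and 12 negative. Over all genes with their own description, 52.5% were positive. By role, this setting reversed the proteasome count, to 2 positive and 1 negative. It left 4 negative E2 genes, and 10 positive and 3 negative E3 ligases. Positive members outnumbered negative ones under all 7 alternatives. These reuse most of the same genes, so their shared direction is no independent support. In 4 of them, 1 row per description, fewer keywords, excluded classes kept and the 10 lowest adjusted p left out, the counts were 28 and 18, 25 and 22, 37 and 30, and 25 and 19. Over all genes, without such restrictions, 48.4% were positive. Combined peaks marked 2 members within 5, 10 and 50 kb, and 0 with a score of at least 1. For that score no share over all placed genes was computed. Library 1 marked 5 and library 2 marked 8. Read depth is unknown, so small changes that failed the authors' threshold cannot be told from genes that were not measured.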

Other observations

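Domain terms group the pathway without its descriptions, although many of the genes are the same; the domain groups were chosen after the values had been seen. Of 26 genes in the authors' deposited table that list a RING-type domain, 20 were positive and 6 negative, against 48.4% positive over all genes. Of these 26, 15 are outside the members, with 11 positive and 4 negative. An uncharacterised RING gene (LOC576286) had 3.85 on the log2 scale in the authors' deposited table with an adjusted p of 5.22e-31, lower than that of any member. Another uncharacterised RING gene (LOC100888960) had 2.40 there, with an adjusted p of 7.37e-15. The largest change of the RING group was negative. A gene described as APOBEC1 complementation factor (LOC100893109) had -4.29, with an adjusted p of 0.000206. The other negative RING genes outside the members lay between -1.51 (LOC584179) and -1.21 (LOC115918842). All 7 genes with a proteasome domain term were negative, against 51.6% of all genes in the authors' deposited table. They are 4 members and 3 genes left out by class, all reported above, and 2 of them are the Psmd11 copies of 1 gene model. The positive proteasome genes carry no such term and so are not counted. Activator subunit 4 (LOC590127, 0.60) lists only a domain of unknown function, and STS1 (LOC588120, 0.99) lists no domain term.

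The ubiquitin-conjugating domain marks genes of both signs. Of 11 genes with this domain in the authors' deposited table, 8 were negative, namely the 7 E2 members and the SUMO enzyme Ubc9. The 3 positive genes were an uncharacterised gene (LOC100890790) at 1.45, the AKT-interacting protein gene (LOC578956) at 0.74 and Birc6 (LOC577866) at 0.62 in the authors' deposited table. Skp2 (LOC574970), an F-box gene whose description lacks the word, had 1.54 in the authors' deposited table, with an adjusted p of 5.64e-09.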
